A study of Sus scrofa with 4 samples.

Results

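The genes described here are 10 mRNAs whose proteins coat, fuse or build lipid droplets, followed in pig subcutaneous preadipocytes during adipogenic differentiation in culture. They were chosen by symbol among the protein-coding genes of the deposited tables and are the 5 perilipins PLIN1 to PLIN5, the 3 genes of the CIDE family, CIDEA, CIDEB and CIDEC, and the endoplasmic reticulum (ER) genes FITM2 and BSCL2. All 10 were found among 16192 mRNAs. The preadipocytes came from the subcutaneous fat of male Chinese Erhualian piglets, 5 days old. D0 cells were confluent and had received no hormone, D2 cells had been kept for 2 d in dexamethasone, 3-isobutyl-1-methylxanthine and insulin, D4 cells had then been kept for 2 d in insulin alone, and D8 cells had been returned to growth medium from D4 on. RNA of 3 piglets was pooled in equal amounts into 1 library for each stage, so that there are 4 libraries, no replicates and no test between stages. Each stage is 1 library, so the effect of the stage and that of the library cannot be told apart. The 95% intervals given below cover the counting of reads only.

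A lipid droplet is a core of triglyceride and sterol ester under a single layer of phospholipid, and it is the organelle in which fat cells hold their energy store. It starts as a lens of neutral lipid between the leaflets of the ER membrane, where seipin, the product of BSCL2, and the triglyceride-binding protein FITM2 act. Perilipins then cover its surface and control the access of lipases, and the CIDE proteins gather where 2 droplets touch and let lipid pass from the smaller to the larger one. PLIN2 and PLIN3 occur in most cells, whereas PLIN1, PLIN4, CIDEA and CIDEC are known mainly from fat cells and PLIN5 from oxidative tissues such as heart and brown fat.

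Levels are given as FPKM, the fragments counted on a gene after scaling by its length and by the library's total, which can be set side by side between genes. The reads behind each value were worked out from the deposited FPKM, and the library totals that FPKM was scaled by came to 75387428 for D0, 54987801 for D2, 74358922 for D4 and 54128151 for D8. A gene was taken as reliably expressed when 3 or 4 libraries had an FPKM of at least 1, which held for 9191 mRNAs. Between libraries, rose and fell are written of a reliably expressed gene whose FPKM differed at least 2-fold, with 0.01 added to each value before log2 was taken. The RNA of the signal recognition particle took from 12.4% of the reads at D0 to 17.1% at D2, and its part in the results below was not tested. In bulk RNA, fewer cells of a type and less RNA per cell cannot be told apart.

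The droplet genes did not move as one group. PLIN1 and CIDEA rose at D2 and again at D4, CIDEC and PLIN4 were highest at D8, FITM2 and BSCL2 were highest at D4 and returned to near their D0 level at D8, and PLIN2 and PLIN3 stayed within 2-fold in all 6 comparisons. PLIN5 and CIDEB were at or near 0. D4 and D8 held the highest level of 4 genes each, and D0 and D2 that of 1 gene each (PLIN3 and PLIN2).

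**Figure D1:**
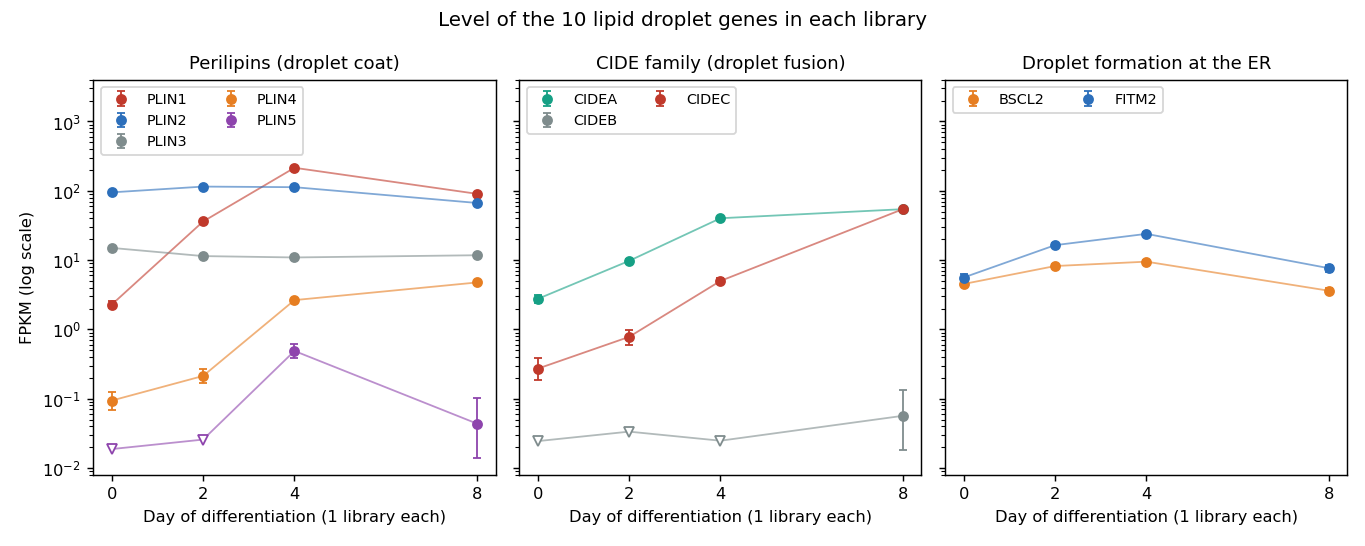
FPKM (log axis) of the 10 droplet genes against the day of differentiation, in 3 panels by role, with 1 point per library and bars for the exact 95% counting interval of the reads. Open triangles mark libraries with 0 reads, drawn at the FPKM of 3 reads. PLIN1 passes PLIN2 between D2 and D4, and CIDEC reaches CIDEA at D8.

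PLIN1 (chromosome 7, 55237517 to 55250797, minus strand, Sscrofa11.1) encodes the coat protein that binds the lipase activator ABHD5 until protein kinase A phosphorylates the coat protein. Its FPKM was 2.28 before induction, 36.1 at D2, 215 at D4 and 90.3 by D8, from 271, 3127, 25180 and 7709 reads. Every later library was far above D0, and D4 was the highest. Its rank among mRNAs went from 7761 at D0 to 1430 at D2 and 270 at D4, and was 607 at D8. Its ratio was 15.8-fold at D2 vs D0 (log2 3.98, interval 3.80 to 4.17) and a further 5.95-fold at D4 vs D2 (log2 2.57, interval 2.52 to 2.63), so that D4 stood 93.8-fold above D0. Between D4 and D8 it fell by 1.25 on the log2 scale (interval -1.29 to -1.21) but remained 39.5-fold above D0. With median-ratio scaling of the libraries, D8 vs D4 was log2 -1.04, outside that interval and only just past 2-fold. PLIN1 was also the one droplet gene with quantitative PCR primers in the study, shown here because they bound the stretch of transcript that its separate PCR assay read, in lower case throughout and 5′ to 3′.
PLIN1 first primer: gttcacagctgccaatgagc
PLIN1 second primer: cagcaccgaggactttgtct
No value from that assay was used here.

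PLIN2 (chromosome 1, 203683867 to 203709277, plus strand), the coat protein of droplets in most cell types, was already abundant before induction. Its FPKM was 94.9 in D0 cells, 115 at D2, 113 at D4 and finally 66.7 at D8, from 17571, 15529, 20588 and 8865 reads. D2 and D4 were nearly level and D8 was the lowest of the 4 libraries. The largest change was at D8 vs D2 (log2 -0.79, interval -0.82 to -0.75), which is within 2-fold. PLIN3 (chromosome 2, 73970149 to 73995314, plus strand), a perilipin that is soluble in the cytosol and binds small new droplets, had an FPKM of 15.0, 11.4, 10.9 and 11.8 in the order of the stages. Its highest library was 1.37-fold above its lowest, the narrowest range of the 10 genes.

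PLIN4 (chromosome 2, 74318624 to 74331920, plus strand), a perilipin with long repeats of amphipathic helix, was barely present in preadipocytes. Its FPKM was 0.0941 before induction, 0.213 at D2, 2.65 at D4 and 4.76 by D8, from 49, 81, 1360 and 1781 reads. The level was higher in each later library, with the largest step between D2 and D4, where it was 11.9-fold higher (log2 3.57, interval 3.31 to 3.98). D8 stood 45.9-fold above D0 (log2 5.52, interval 5.25 to 6.10). PLIN5 lies 4309 bases before PLIN4 on the same strand (chromosome 2, 74304613 to 74314314) and did not follow it. PLIN5, which brings droplets to mitochondria, had 0 reads at D0 and at D2, 77 reads at D4 (FPKM 0.489, interval 0.386 to 0.611) and 5 reads at D8 (FPKM 0.0436). With the lower limit of that interval set against the 3 reads that a count of 0 allows, D4 was at least 20.5-fold higher than D0 and at least 15.0-fold higher than D2. D8 was lower than D4 by 3.22 on the log2 scale, with a wide interval (-5.15 to -2.20) because it rests on 5 reads. All these PLIN5 levels were under an FPKM of 1.

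In sum, perilipin mRNA was 112, 163, 342 and 174 FPKM in the 4 libraries from D0 to D8, and its makeup shifted. PLIN2 made up 84.5%, 70.7%, 33.0% and 38.4% of the sum in the order of the stages, and PLIN1 made up 2.03%, 22.2%, 62.9% and 52.0% of it. The ratio of PLIN1 to PLIN2 was 0.0240 at D0 (interval 0.0212 to 0.0271), 0.314 at D2, 1.90 at D4 (1.87 to 1.94) and 1.35 at D8 (1.31 to 1.40), so that the more abundant perilipin mRNA was PLIN2 in the first pair of libraries and PLIN1 in the last pair. PLIN3 went from 13.4% of the sum at D0 to 3.20% at D4 while its own level hardly moved. PLIN4 reached 2.75% at D8, its highest share.

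**Figure D2:**
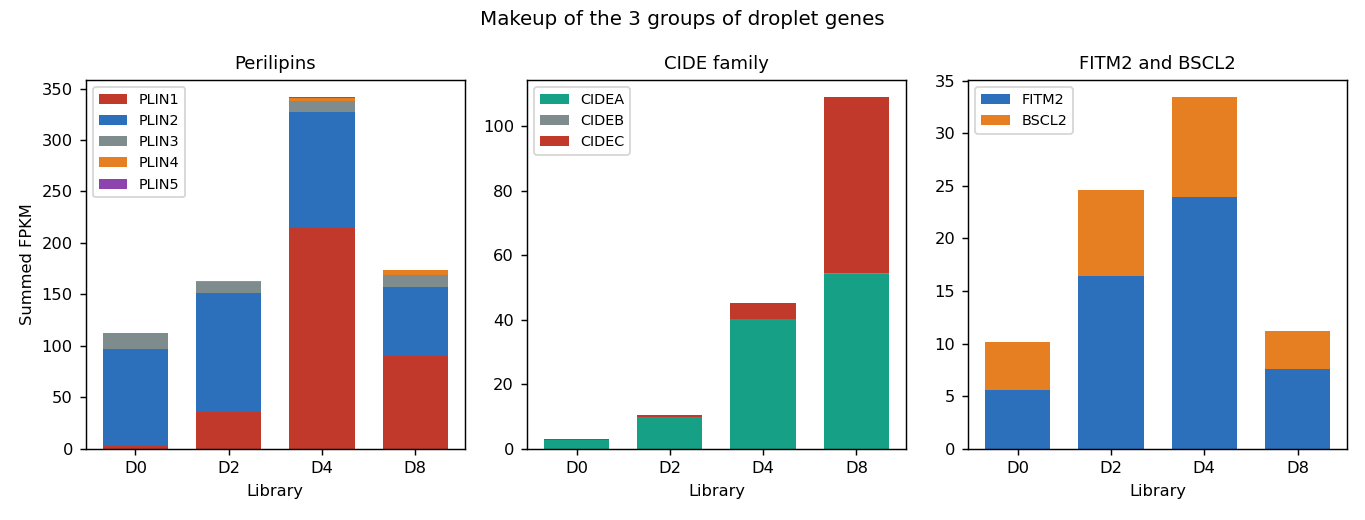
Summed FPKM (linear axis from 0) of the perilipins, of the CIDE family and of FITM2 with BSCL2 in each of the 4 libraries, stacked by gene. The perilipin sum is highest at D4, where PLIN1 is 62.9% of it, and the CIDE sum is highest at D8, where CIDEA and CIDEC are nearly equal.

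CIDEA (chromosome 6, 97253074 to 97268355, minus strand) promotes the transfer of lipid between droplets in contact and is known as a marker of brown fat in mice. Its FPKM was 2.75 in D0 cells, 9.74 at D2, 40.2 at D4 and finally 54.3 at D8, from 279, 720, 4015 and 3951 reads. The level climbed through D4 and differed by 1.35-fold between D4 and D8. It rose 3.53-fold at D2 vs D0 (log2 1.82, interval 1.62 to 2.03) and 4.12-fold at D4 vs D2 (log2 2.04, interval 1.93 to 2.16).

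CIDEC (chromosome 13, 66141836 to 66149801, minus strand), the family member that builds the single large droplet of white fat cells, was the latest of the abundant droplet genes. Its FPKM was 0.271, 0.780, 5.01 and 54.6 in the order of the stages, from 31, 65, 564 and 4477 reads. D8 was far above the other 3 libraries, and it stood 10.9-fold above D4 (log2 3.44, interval 3.32 to 3.58). Against D0 it was 194-fold higher (log2 7.60, interval 7.14 to 8.21), and the log2 ratio was 5.45 with a pseudocount of 1. The 194-fold ratio was above that of 99.97% of the reliably expressed mRNAs in that comparison. CIDEC itself was not reliably expressed, and that filter removes genes that are low in the early libraries, as CIDEC was. The percentage therefore cannot be read as a rank among all mRNAs. PLIN1, FITM2 and BSCL2 fell across the same interval, D4 to D8. The ratio of CIDEC to CIDEA was 0.0986 at D0, 0.0801 at D2 and 0.125 at D4, and then 1.01 at D8 (interval 0.963 to 1.05). The interval at D0 (0.0657 to 0.143) overlapped those at D2 and D4, which did not overlap each other. CIDEC therefore made up 7.41% to 11.08% of the CIDE sum in the first 3 libraries and 50.1% in the last. CIDEB (chromosome 7, 74982941 to 74985776, plus strand), the family member of liver and gut, had 0 reads at D0, D2 and D4 and 5 reads at D8 (FPKM 0.0568, interval 0.0184 to 0.133).

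FITM2 and BSCL2 went up to D4 and back. FITM2 (chromosome 17, 46742662 to 46745898, minus strand) had an FPKM of 5.61 before induction, 16.4 at D2, 23.9 at D4 and 7.63 by D8, from 345, 737, 1451 and 337 reads. It rose 2.93-fold at D2 (log2 1.55, interval 1.36 to 1.74), stood 4.26-fold above D0 at D4, and fell by 1.65 on the log2 scale from D4 to D8 (interval -1.82 to -1.48). BSCL2 (chromosome 2, 9052676 to 9064890, plus strand) had an FPKM of 4.52 in D0 cells, 8.21 at D2, 9.50 at D4 and finally 3.61 at D8. It was 2.10-fold above D0 at D4 (log2 1.07, interval 0.96 to 1.18, which includes 1) and fell by 1.39 from D4 to D8 (interval -1.54 to -1.26). With median-ratio scaling, D8 vs D4 was log2 -1.44 for FITM2 and -1.18 for BSCL2, each outside its counting interval. At D8 vs D0 neither gene differed 2-fold, with log2 0.44 for FITM2 and -0.32 for BSCL2. The ratio of FITM2 to BSCL2 was 1.24 at D0 and between 2.0 and 2.52 in the other 3 libraries.

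Of the 10 genes, 6 were reliably expressed (PLIN1, PLIN2, PLIN3, CIDEA, FITM2 and BSCL2). PLIN4 and CIDEC reached an FPKM of 1 in 2 libraries each and PLIN5 and CIDEB in none, so the filter removed the gene with the largest ratio of all, CIDEC, because it was low early. At D2 vs D0, 3 of the 6 rose (PLIN1, CIDEA, FITM2) and 0 fell, beside 6.67% of all reliably expressed mRNAs that rose and 10.1% that fell. At D4 vs D2, 2 of the 6 rose (PLIN1, CIDEA) and 0 fell, beside 4.24% and 0.838%. At D8 vs D4, 0 rose and 3 fell (PLIN1, FITM2, BSCL2), beside 4.43% and 10.1%. At D4 vs D0, 4 rose (PLIN1, CIDEA, FITM2, BSCL2) and 0 fell, beside 10.4% and 8.81%. At D8 vs D0, 2 rose (PLIN1, CIDEA) and 0 fell, beside 3.6% and 3.68%. At D8 vs D2, a comparison that the study did not make, 2 rose (PLIN1, CIDEA) and 2 fell (FITM2, BSCL2), beside 7.01% and 4.79%. Each of these falls was lost under one alternative, FITM2 with median-ratio scaling (log2 -0.99) and BSCL2 with a pseudocount of 1 (log2 -0.9994, just within 2-fold), and the rise of BSCL2 at D4 vs D0 was lost with a pseudocount of 1 (log2 0.93). The comparisons share libraries, and each is given by its own values.

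Another filter was a mean FPKM of at least 1 over the 4 libraries, chosen after seeing that 2 late genes had been dropped. With it, 8 of the 10 genes and 9570 mRNAs passed, now with PLIN4 and CIDEC. Both pass through their high values at D4 and D8, so being higher there than at D0 or D2 is partly built into the filter. At least 2-fold higher were then 5 of 8 at D2 vs D0 (7.45% of these mRNAs), 4 at D4 vs D2 (4.81%), 1 at D8 vs D4 (5.31%), 6 at D4 vs D0 (11.3%), 4 at D8 vs D0 (4.04%) and 4 at D8 vs D2 (7.93%). Lower were 3 at D8 vs D4 (10.8%) and 2 at D8 vs D2 (5.32%). With no filter, the genes at least 2-fold higher or lower were 5 of 10 at D2 vs D0 (29.6% of 16192 mRNAs), 5 at D4 vs D2 (18.7%), 6 at D8 vs D4 (27.7%), 7 at D4 vs D0 (32.2%), 6 at D8 vs D0 (21.7%) and 8 at D8 vs D2 (25.4%). The counts at D8 include CIDEB, and against D0 and D2 also PLIN5, with 5 reads against 0 through the pseudocount. For these the lower limit of the ratio was 0.55 to 0.75, so a 2-fold difference is not shown. The median of all reliably expressed mRNAs was itself shifted at D8, by -0.21 on the log2 scale against D4, by -0.18 against D0 and by -0.12 against D2. The sign of PLIN3 at D8 vs D2 (log2 0.04) turned when the libraries were scaled to the same sum over protein-coding genes.

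**Figure D3:**
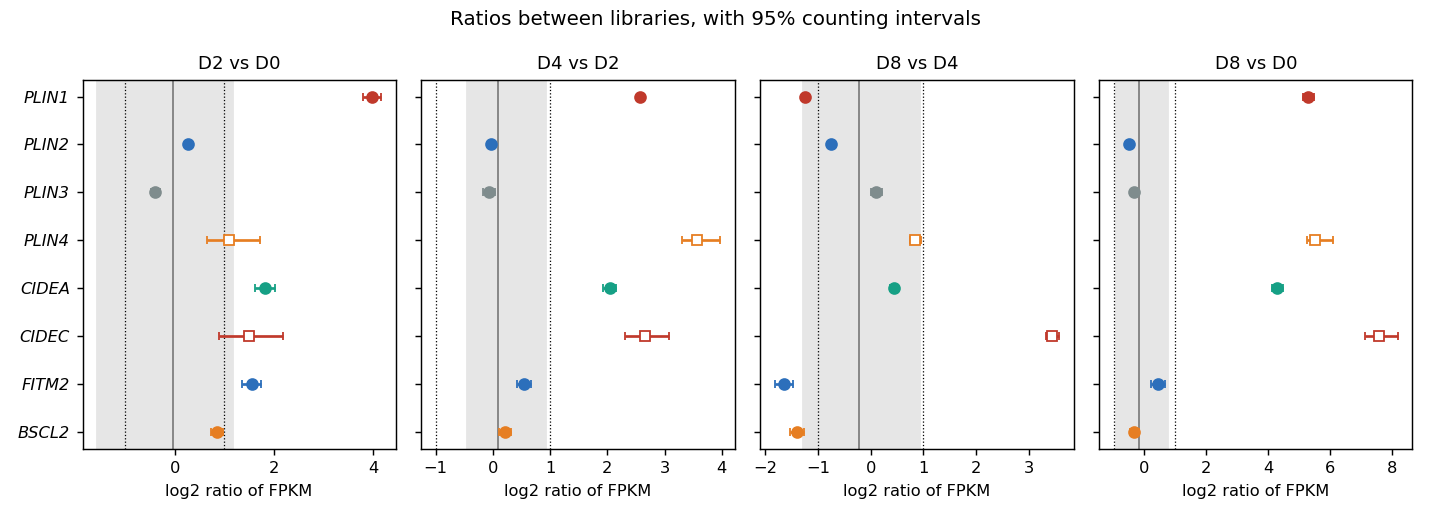
log2 ratio of FPKM for the 8 droplet genes with reads in every library, in 4 comparisons (3 consecutive steps, and D8 against D0), with bars for the 95% counting interval. Filled circles are reliably expressed genes and open squares are PLIN4 and CIDEC. The grey band runs from the 5th to the 95th percentile of 9191 mRNAs, with a line at their median, and dotted lines mark 2-fold. CIDEC lies far right of the band at D8 vs D4, where FITM2 and BSCL2 lie to its left.

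Within a library, the order of the 10 genes changed with the stage. At D0 it ran PLIN2, PLIN3, FITM2, BSCL2, CIDEA, PLIN1, CIDEC and PLIN4, and at D8 PLIN1, PLIN2, CIDEC, CIDEA, PLIN3, FITM2, PLIN4 and BSCL2, with PLIN5 and CIDEB last in both. Most neighbours in these orders were apart by more than their counting intervals. The exceptions were CIDEA and PLIN1 at D0, CIDEC and CIDEA at D8, and PLIN5 and CIDEB at D0, D2 and D8.

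Time courses were compared by the root mean square (RMS) difference between the 3 log2 ratios to D0 of a pair of genes, a description over 3 ratios from 4 shared libraries. The closest pairs of droplet genes were PLIN2 with PLIN3 (0.57), PLIN2 with BSCL2 (0.59), FITM2 with BSCL2 (0.84) and PLIN4 with CIDEA (0.94). The farthest was PLIN1 with PLIN3 (5.78). PLIN1 was 2.40 from CIDEC, although both are known as white fat cell proteins, with PLIN1 highest at D4 and CIDEC at D8. PLIN4 was nearer to CIDEC (1.26) than to PLIN1 (1.99).

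**Figure D4:**
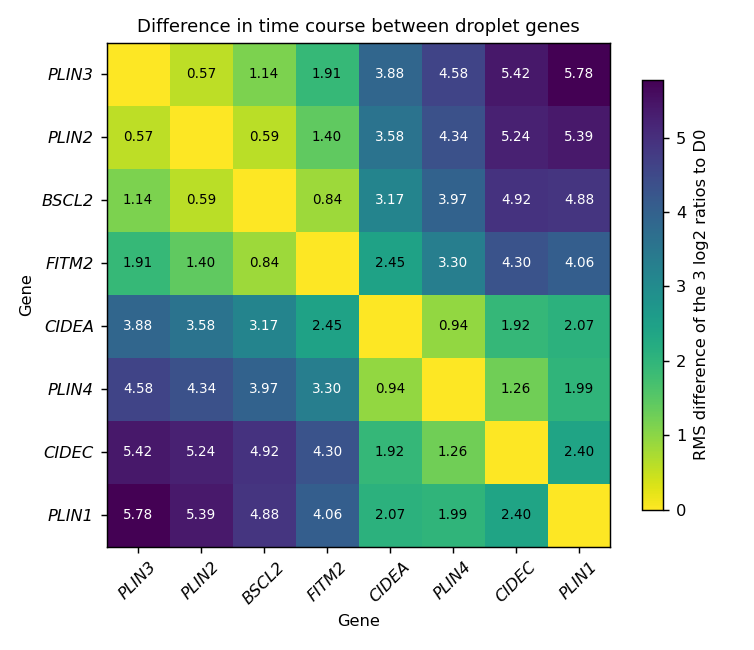
RMS difference of the 3 log2 ratios to D0 between each pair of the 8 droplet genes with reads in every library, printed in each cell and shown by colour (light is alike, dark is unlike). PLIN3, PLIN2, BSCL2 and FITM2 form a light block at the upper left and CIDEA, PLIN4, CIDEC and PLIN1 lie together at the lower right.

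Among 9191 reliably expressed mRNAs, the 3 nearest to PLIN1 in time course were RDH16 (RMS difference 0.31), a retinol dehydrogenase, SLC2A4 (0.53), the insulin-responsive glucose transporter, and PPP1R1B (0.69), an inhibitor of protein phosphatase 1. PLIN1 was by far the most abundant of them at D4, where RDH16 had an FPKM of 6.95, SLC2A4 8.80 and PPP1R1B 4.90. CIDEA was nearest to LOC110256045 (0.30), FABP4 (0.35) and FABP3 (0.40), the last pair being cytosolic fatty acid carriers that reached an FPKM of 1557 and 3805 at D8. PLIN4 was nearest to SNCG (0.76), which encodes gamma-synuclein, FABP3 (0.77) and APOE (0.88), which encodes apolipoprotein E. CIDEC had no near neighbour among these mRNAs, whose filter CIDEC itself did not pass. Its 3 nearest were SNCG (1.32), ADIRF (1.41), a gene named for its part in adipogenesis, and LOC110256045 (1.71), and ADIRF showed the same late step, with an FPKM of 1.13, 0.887, 10.8 and 88.3 at D0, D2, D4 and D8. Of these mRNAs, 187 lay within 0.5 of FITM2, led by ARSA (0.07), ITSN1 (0.09) and KRT10 (0.10). Within 0.5 of BSCL2 lay 1478, led by ALG12 (0.05), TMEM132A (0.05) and LOC100737977 (0.06). The same radius held 1 mRNA for PLIN1, 5 for CIDEA and 0 for PLIN4 and CIDEC. These numbers depend on the size of a gene's own ratios, since small changes are shared by more mRNAs. They also leave out genes low in the early libraries, as PLIN4 and CIDEC were. AQP7, one of those left out, had log2 ratios to D0 of 1.19, 4.85 and 5.19, from 4 reads at D0. PLIN4 had 1.10, 4.67 and 5.52.

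Among the lipases and lipase regulators that work at the perilipin coat, ABHD5, PNPLA2 and LIPE peaked at D4, as PLIN1 did. Of 8 listed genes, 6 were reliably expressed, of which 3 rose at D2 vs D0, 3 rose at D4 vs D2 and 3 fell at D8 vs D4, with medians of 1.09, 0.87 and -0.94 on the log2 scale beside -0.03, 0.09 and -0.21 for all reliably expressed mRNAs. ABHD5, the activator that PLIN1 binds, had an FPKM of 19.9, 94.1, 157 and 68.5 in the order of the stages. PNPLA2, the first triglyceride lipase, had 2.70, 8.95, 17.9 and 7.14, and LIPE, the hormone-sensitive lipase, had 0.808, 7.15, 31.9 and 10.3. MGLL, the monoglyceride lipase, was level between D4 and D8 (FPKM 3.94 and 4.60), and HILPDA, an inhibitor of PNPLA2, stayed within 2-fold (18.2 to 29.8).

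Genes that make triglyceride or shape the nascent droplet were more mixed than FITM2 and BSCL2. Of 15 listed genes 12 were found and 9 were reliably expressed. Of these 9, 2 rose at D4 vs D0 and 1 fell, and 1 rose at D8 vs D4 and 1 fell, with medians close to those of all mRNAs (0.08 beside 0.06, and -0.29 beside -0.21). DGAT2, which makes triglyceride at the droplet, rose the most, from an FPKM of 0.152 at D0 to 10.1 at D2, 57.7 at D4 and 47.1 at D8. GPAT4, an enzyme of glycerolipid synthesis that moves onto growing droplets, peaked at D4 as FITM2 did (20.02, 30.1, 58.8 and 22.6). AGPAT2, loss of which causes lipodystrophy as loss of BSCL2 does, ran the other way, with 14.4, 7.39, 6.60 and 15.2. PCYT1A, which makes phospholipid for the droplet surface, and RAB18, a small GTPase on droplets, stayed within 2-fold in all 6 comparisons.

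Of 11 listed transcription factors known to act on droplet genes, none had its highest level at D8. Of the 11, 9 were reliably expressed, of which 4 rose at D2 vs D0, 0 at D4 vs D2 and 0 at D8 vs D4. Of all reliably expressed mRNAs, 6.67%, 4.24% and 4.43% rose in these comparisons. At D8 vs D4, 5 fell, with PPARG only just past 2-fold. The median at D8 vs D4 was -1.01 beside -0.21 for all mRNAs. PPARG, the nuclear receptor that binds at many droplet genes, had an FPKM of 2.95 before induction, 26.4 at D2, 51.9 at D4 and 25.8 by D8. CEBPA had 15.4, 95.3, 162 and 37.1, CEBPB had 20.6, 22.4, 31.1 and 12.8, and CEBPD was highest at D2 (299). ESRRA was level, between 29.5 and 33.3. From D4 to D8, PPARG fell by 1.01 and CEBPA fell by 2.13 on the log2 scale. At D8 vs D0 both were still higher, by 3.12 and 1.27. The part of these factors in the level of CIDEC or the other droplet genes was not tested.

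**Figure D5:**
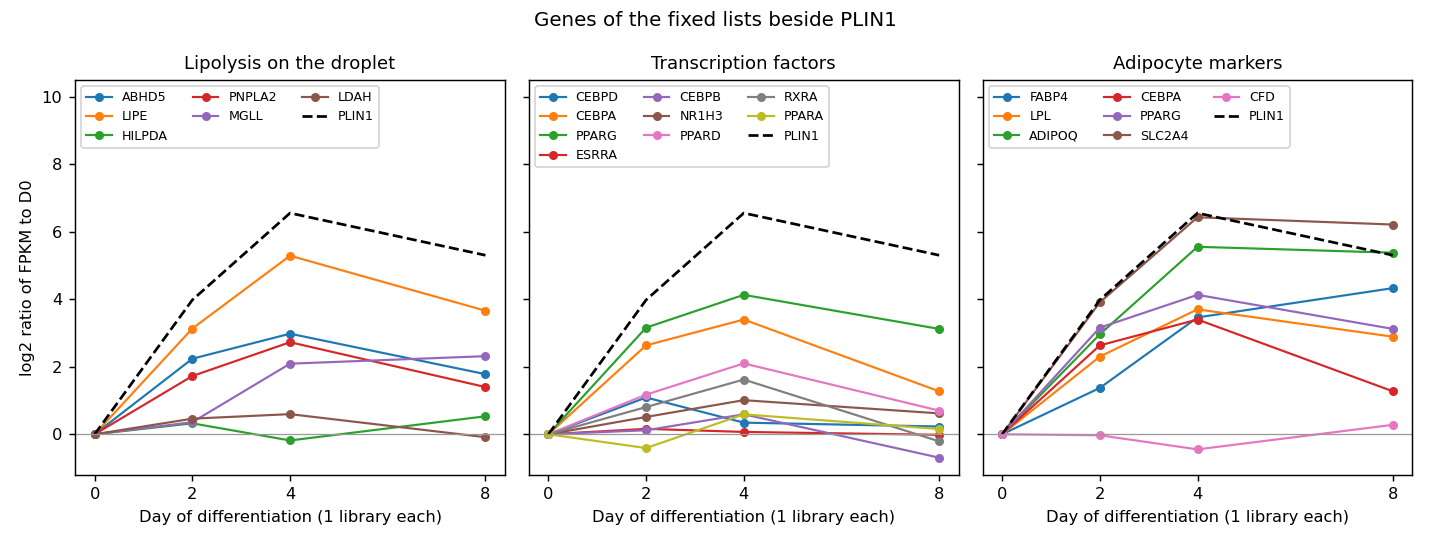
log2 ratio of FPKM to D0 against the day for the reliably expressed genes of 3 lists (lipolysis on the droplet, transcription factors, adipocyte markers), 1 library per day, with PLIN1 as a dashed black line in each panel. LIPE, ABHD5, PNPLA2, PPARG and CEBPA turn down after D4 as PLIN1 does, and FABP4 and MGLL do not.

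Most reliably expressed adipocyte markers were higher in every later library than at D0, whereas preadipocyte and stromal markers went both ways. Of 10 listed adipocyte markers 9 were found and 7 were reliably expressed, and 6 of these 7 rose at D2 vs D0, at D4 vs D0 and at D8 vs D0. Of all reliably expressed mRNAs, 6.67%, 10.4% and 3.6% rose in these comparisons. At D8 vs D4, 0 of the 7 rose and 2 fell, CEBPA and, only just past 2-fold, PPARG, beside 4.43% and 10.1% of all. The summed FPKM of the 9 found was 121, 450.0, 1506 and 1932 at D0, D2, D4 and D8, and without FABP4 it was 43.3, 249, 653 and 374, so that the increase from D4 to D8 came from FABP4 (853 and 1557). ADIPOQ, the adiponectin gene, had 3.80, 29.6, 179 and 158, and LPL, lipoprotein lipase, had 19.2, 94.7, 250 and 142. LEP, the leptin gene, stayed under an FPKM of 1 in all 4 libraries. Preadipocyte and stromal markers had a summed FPKM of 159 to 319 over the 7 found, mostly from PDGFRA (75.8, 189, 149 and 60.8) and THY1 (105, 101, 88.0 and 78.8). Of the 6 reliably expressed, 1 rose and 2 fell at D4 vs D0, beside 10.4% and 8.81% of all reliably expressed mRNAs. At D8 vs D0, 0 of the 6 rose and 2 fell, beside 3.6% and 3.68%. NT5E had 3.22, 1.10, 0.731 and 1.15 at D0, D2, D4 and D8, and DPP4 had 8.64, 4.76, 2.57 and 4.86. PDGFRB went the other way, with 12.4, 20.9, 28.8 and 12.0. The summed FPKM over the 4 muscle markers found was 3343 in D0 cells, 362 at D2, 229 at D4 and finally 2798 at D8, nearly all of it from ACTA2, smooth muscle actin, with DES at 436, 37.7, 4.05 and 35.7. This sum was therefore high in the libraries where FITM2 and BSCL2 were low and low where they were high, and its part in their time course was not tested. Macrophage markers summed to 3.55 to 8.03, mostly CD14, endothelial markers to 1.16 to 2.65, mostly PECAM1, and hepatocyte markers to 1.41 to 6.53, mostly APOA1, with ALB under 0.04. The reference genes RPLP0, PPIA and HPRT1 stayed within 2-fold in all 6 comparisons.

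Other transcripts at the droplet gene loci were looked for within 50 kb. Beside the members there were 55 genes, 44 of them mRNAs, of which 31 were reliably expressed. Of these 31 neighbours, 2 rose and 5 fell at D2 vs D0 (6.67% and 10.1% of all reliably expressed mRNAs), 5 rose and 2 fell at D4 vs D0 (10.4% and 8.81%), and 1 rose and 0 fell at D8 vs D0 (3.6% and 3.68%). The neighbour that rose at D4 and at D8 was PEX11A, a peroxisome division gene on the same strand as PLIN1 and 5441 bases from it, with an FPKM of 0.915, 2.17, 7.42 and 7.08 at D0, D2, D4 and D8. Its level at D8 was close to that at D4, whereas PLIN1 fell. TUBB6, a tubulin gene 12381 bases from CIDEA, was highest at D0 (236, 16.9, 31.5 and 124), where CIDEA was lowest, and from D2 on both were higher in each later library. Of the 11 genes that were not mRNAs, 2 reached an FPKM of 1. LOC106505669, a lncRNA that overlaps CIDEC by 3063 bases on the opposite strand, had 1.68, 4.06, 2.79 and 3.17 and showed no step at D8. LOC100737553, a transcribed pseudogene of 785 bases inside PLIN2 on the same strand, had 36.3, 26.9, 26.6 and 31.0. The libraries were made with a directional kit, but the strand setting of the counting is not given in the sources used here, so reads of overlapping genes may be shared between them.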

How the data were processed

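Total RNA of 4 stages was depleted of rRNA and sequenced from directional libraries. The authors aligned reads with HISAT2 2.0.5 and deposited FPKM for 22944 genes and SRPBM, back-splice junction reads scaled by the reads mapped with BWA, for 8623 circRNAs. Coordinates are of Sscrofa11.1, and all 10 members were paired with its RefSeq annotation by symbol, start and end.

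Whole reads were computed from the deposited FPKM alone. The ratio of FPKM steps between libraries gave their relative depth, their common divisor gave the library totals, and the smallest whole gene length that turned all values of a gene into whole reads gave its reads, for 22941 genes. Recovered reads came to 98.9% to 99.1% of the totals. In simulated data, 97.3% of 3000 genes had their reads recovered equal, and the others as whole fractions, which would widen an interval. Exact Poisson and conditional binomial 95% intervals cover counting error only.

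The members and the 15 gene lists were chosen with earlier results of these data known. Genes named are the members, the 3 mRNAs nearest to each member that differed 2-fold from D0, up to 5 reliably expressed genes per list with the largest highest FPKM, non-coding RNAs at member loci with FPKM of at least 1 and circRNAs of members. LEP, ALB, AQP7, EBF2, PPARGC1A, DIO2, ELOVL3 and the locus neighbours PEX11A and TUBB6 were named after their values were seen. UCP1 and TBX1 were named because they were not found. Alternatives were pseudocounts of 0.1 and 1 for 0.01, other filters, a ratio of 1.5, median-ratio scaling and a common sum over protein-coding genes. Python 3.11.15, numpy 2.4.6, pandas 2.3.3, scipy 1.17.1 and matplotlib 3.10.9 were used.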

Additional observations from a re-analysis of the deposited data

Results flagged for a closer look

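Both circRNAs of a droplet gene lay in PLIN2 and were each seen in a single library, in data that the comparisons above do not use. ssc_circ_0000442 (chromosome 1, 203685646 to 203685979, plus strand, a span of 334 bases) had 6 junction reads at D2 and 0 in the other 3 libraries. ssc_circ_0000443 starts at the same base and ends at 203692596, a span of 6951 bases, and had 5 junction reads at D0 and 0 elsewhere. A count of 0 allows up to 3 junction reads, which is 17.8 to 25.2 SRPBM in these libraries, and the deposited values of the 2 circRNAs were 43.6 at D2 and 32.1 at D0. The other 9 droplet genes had none listed, including PLIN1, whose linear mRNA had more reads than PLIN2 at D4.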

How the results depend on the processing

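The number of droplet genes that differed at least 2-fold depended on the filter for low values. Without a filter it was 5 at D2 vs D0, 5 at D4 vs D2, 6 at D8 vs D4, 7 at D4 vs D0, 6 at D8 vs D0 and 8 at D8 vs D2, where genes with 0 reads count through the pseudocount. With a mean FPKM of at least 1, chosen after seeing the data, it was 5 at D2 vs D0, 4 at D4 vs D2 and 4 at D8 vs D0, and within 1.5 times of the reported count in the other 3 comparisons. The other 6 alternatives left all 6 counts within 1.5 times. Of 49 log2 ratios of single genes, the number that moved beyond the counting interval was 5 with a pseudocount of 0.1, 24 with 1, 19 with median-ratio scaling and 11 with a common sum over protein-coding genes. No called ratio changed sign. The called ratios of reliably expressed genes that came within 2-fold were FITM2 at D8 vs D2 with median-ratio scaling, and BSCL2 at D8 vs D2 and at D4 vs D0 with a pseudocount of 1. No paired analysis was possible because each stage has 1 library, and for the same reason no library could be left out of a stage. Depth limits PLIN5 and CIDEB, which had at most 77 and 5 reads.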

Other observations

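Among other proteins found on droplets, VIM, CAV1 and CAVIN1 were highest at D0. Of 16 listed genes 14 were found and 12 were reliably expressed. Of these 12, 0 rose and 4 fell at D2 vs D0 (median log2 -0.46 beside -0.03 for all reliably expressed mRNAs). At D8 vs D4, 3 rose and 1 fell, beside 4.43% and 10.1% of all reliably expressed mRNAs. VIM, the intermediate filament that cages droplets, had an FPKM of 2952, 885, 766 and 1898 in the order of the stages. CAV1, the caveolin that also reaches droplets, had 294, 30.6, 31.4 and 221, and CAVIN1 had 205, 69.4, 125 and 201. SQLE, a sterol synthesis enzyme on droplets, ran as FITM2 did between D4 and D8 (45.9 and 14.4), and ARF1 stayed within 2-fold (48.7 to 81.6).

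Of 8 listed brown and beige markers 6 were found and 2 were reliably expressed. UCP1 and TBX1 were not found. COX7A1, a respiratory chain subunit, rose at D2 vs D0 (15.5 to 45.7) and was 39.7 at D4 and 37.3 at D8. TMEM26 had 5.93, 1.72, 2.64 and 5.75 at D0, D2, D4 and D8. Neither was higher in each later library, as CIDEA was, though TMEM26 rose at D8 vs D4 (log2 1.12). Of those not reliably expressed, EBF2 had 0.792, 2.13, 2.80 and 0.611 at D0, D2, D4 and D8. PPARGC1A had 0.0403, 0.357, 0.355 and 0.0605 in the same order, and DIO2 had 0.579, 0.169, 0.566 and 0.769. ELOVL3 had 1 read, at D4.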
